A study of Mus musculus with 16 samples.

Results

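Hyaluronan synthesis and the matrix proteoglycans were followed through 10 genes: the synthases Has1, Has2 and Has3, the link protein Hapln1, the large proteoglycan Vcan (versican), the hyaluronan receptor Cd44, the hyaluronidase Hyal2, and the small leucine-rich proteoglycans Dcn (decorin), Lum (lumican) and Bgn (biglycan). All probe sets that the platform table gives to 1 of these genes alone were taken, 20 of the 28898 probe sets with a single gene symbol, and the 10 genes stand among 17097 that were tested. The genes were selected on differences between populations measured on these same arrays, among them that of Hapln1 in ZsGreen-dim cells, so the adjusted p-values below describe these arrays and support no claim about the list. The cells were colon fibroblasts of 4 C57BL/6 mice carrying Gli1CreERT2-ZsGreen, a tamoxifen-inducible Cre at Gli1 with a green fluorescent reporter, given 1 mg of tamoxifen intraperitoneally on each of 5 days and killed at day 6. Cells negative for Epcam (an epithelial marker), CD45 (leukocytes) and CD31 (endothelium) and positive for GP38 (podoplanin, Pdpn) were sorted from each mouse into Sca1+ ZsGreen-high, Sca1+ ZsGreen-dim, Sca1+ ZsGreen-negative and Sca1- ZsGreen-negative populations, 1 array each and 16 arrays in all. Every population therefore had the same genotype and the same tamoxifen, and the reporter marks cells in which Gli1 was active when the drug was given.

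Hyaluronan is a long unsulfated sugar chain made at the plasma membrane by the Has enzymes from UDP-glucuronic acid and UDP-N-acetylglucosamine. Outside the cell it is held by CD44 and other receptors and binds the head of versican, a bond that the link protein stabilises, to form a swollen pericellular coat; Hyal2 starts its breakdown. Decorin, lumican and biglycan sit instead on collagen fibrils, whose spacing they set, and biglycan is also known as a signal to innate immune receptors.

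The ZsGreen-high cells had the highest mean signal of Has1, Has2, Vcan, Cd44, Lum and Bgn, and the Sca1- ZsGreen-negative cells had the lowest of these and of Dcn. On the log2 scale Has2 differed most between these populations, by 2.83, with signals of 7911 ± 412 in ZsGreen-high cells and 1315 ± 883 in Sca1- cells (SD, n = 4 arrays). Vcan followed with 2.26, at 14091 ± 2369 and 3364 ± 2355. Hapln1 was highest in ZsGreen-dim cells, and Has3 and Hyal2 did not pass the test in any comparison. Across the 4 populations 8 of the 10 genes passed limma's F test, where 32.3% of all genes did. The arrays hold RNA from sorted bulk cells, so fewer cells of a type and less RNA per cell cannot be told apart.

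Values are array signals recovered as whole numbers from the deposited scores, the arrays' medians lay between 661 and 686, and signals of different probe sets are not comparable with each other. A signal is called at background where it did not exceed the highest of 23 nonspecific controls on its array, 234 to 488. All 4 ZsGreen-high arrays lay above all 4 Sca1+ ZsGreen-negative, Sca1- and ZsGreen-dim arrays in 15.3%, 16.3% and 7.35% of all genes. For ZsGreen-dim arrays above Sca1+ ZsGreen-negative and Sca1- arrays the shares were 5.44% and 7.51%. Between the negative populations 2.7% of all genes had all Sca1+ arrays above all Sca1- arrays. Gli1 was higher in both ZsGreen-positive populations (1961 to 2978) than in both negative ones (684 to 1545), without overlap, and Pdpn fell from 7494 ± 1153 in ZsGreen-high to 2196 ± 1122 in Sca1- cells. Markers of the depleted types were present: Epcam was at 3472 ± 2370, 10281 ± 3827, 17885 ± 3522 and 17339 ± 5049 from ZsGreen-high to Sca1- cells, and all 17 measured genes of an epithelial list were lower in ZsGreen-high cells than in either negative population (15 and 16 without mouse 2). Of 8 fibroblast markers, a list that holds the sort gene Pdpn, 5 were higher and 0 lower in ZsGreen-high than in Sca1+ ZsGreen-negative cells (1 without mouse 2), and 7 of 8 against Sca1- cells (4 without mouse 2). Of all genes 17.0% were higher and 13.9% lower against Sca1+ ZsGreen-negative cells, and 19.2% and 16.7% against Sca1- cells. In the first of these comparisons 5 of 7 smooth muscle markers were higher and 0 lower. Of 10 endothelial markers 7 were lower there (3 without mouse 2) and 1 was higher. The latter was Tek, at 4020 ± 1000 in ZsGreen-high and 2206 ± 572 in Sca1+ ZsGreen-negative cells. The Sca1- cells stood apart in other lists. Of the markers of glia and neurons, 3 of 6 were lower in Sca1+ than in Sca1- ZsGreen-negative cells (median of the list -0.59) and 4 of 6 in each ZsGreen-positive population. Of all genes 1.23% were lower in Sca1+ ZsGreen-negative, 16.7% in ZsGreen-high and 5.89% in ZsGreen-dim than in Sca1- cells. The median of 5 pericyte markers was -0.84 between the negative populations. The pericyte marker Rgs5 was at 33744 ± 9500 in Sca1- cells and 7706 ± 3025 in Sca1+ ZsGreen-negative cells. The ratio of 3′ to 5′ signal of the Actb control, a sign of RNA quality, was 1.24 ± 0.03 in ZsGreen-high and 1.11 ± 0.01 in Sca1+ ZsGreen-negative cells, without overlap. What part these markers and this ratio have in the results below was not tested. The arrays labelled mouse 2 do not match one another: Xist was at 189 and 172 on its ZsGreen-high and ZsGreen-dim arrays but at 25502 and 28550 on its negative arrays, and Y-linked Eif2s3y was reversed. Xist was at 139 to 198 on the arrays of mouse 1 and at 22097 to 33048 on those of mice 3 and 4. Among the negative arrays only those of mouse 1 had low Xist. These arrays also had the highest fibroblast list means of their populations. In log2 they were 13.29 in Sca1- cells (12.31 to 12.48 in the other mice) and 13.41 in Sca1+ ZsGreen-negative cells (12.89 to 12.93). What part the sex of the mice has in the results was not tested. Where a call named below was lost without mouse 2, this is said beside it. Fits with the mouse as a block pair the arrays labelled mouse 2 too, and are given also without mouse 2.

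Has1, the synthase with the lowest affinity for its sugar precursors, had signals of 6778, 5635, 6378 and 7602 in the ZsGreen-high cells of mice 1 to 4. Its signals were 5082, 5079, 4598 and 5612 in ZsGreen-dim, 4180, 4229, 4687 and 4759 in Sca1+ ZsGreen-negative, and 3167, 3178, 2422 and 2517 in Sca1- cells. The 4 ZsGreen-high arrays were all above the rest, the 4 Sca1- arrays all below, and the ZsGreen-dim and Sca1+ ZsGreen-negative arrays overlapped. In log2 the ZsGreen-high mean was above the Sca1+ ZsGreen-negative mean by 0.56 ± 0.11 (SE, adjusted p = 0.00155; -0.0075 with arrays scaled to fibroblast markers) and above the Sca1- mean by 1.23 ± 0.11 (adjusted p = 4.55e-06). Between the negative populations Has1 was higher in Sca1+ cells by 0.67 ± 0.11 (adjusted p = 0.00264), and by 0.76 without mouse 2 (adjusted p = 0.0161). The ZsGreen-high to ZsGreen-dim difference of 0.37 ± 0.11 had the same sign in all 4 mice and an adjusted p of 0.0977. In the RefSeq annotation of GRCm38.p6 the interval of Has1 overlaps that of Spaca6, and which gene's transcript a probe set reads was not tested. The Spaca6 probe set was higher in ZsGreen-high than in Sca1+ ZsGreen-negative cells by 0.63 ± 0.15, than in Sca1- cells by 1.33 ± 0.15, and between the negative populations by 0.70 ± 0.15 (adjusted p = 0.0187, and 0.195 without mouse 2). The promoter window of Has1 is shown because it holds the cyclic AMP response element TGACGTCA (capitals), found in 1.55% of 32851 promoter windows and 1 of the 6 matched here; it is the RefSeq window of 250 bases before the start, minus strand, chr17:17855189-17855438 of GRCm38.p6, 5′ to 3′.
Has1: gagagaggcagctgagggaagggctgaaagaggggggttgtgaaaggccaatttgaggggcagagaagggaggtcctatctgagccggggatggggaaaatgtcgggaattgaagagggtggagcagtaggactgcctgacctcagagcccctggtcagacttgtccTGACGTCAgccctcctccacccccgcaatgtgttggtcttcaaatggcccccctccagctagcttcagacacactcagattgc

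Has2, the main synthase of connective tissue cells, was read by 1449169_PM_at at 7972, 7417, 7837 and 8417 in ZsGreen-high and 6349, 8354, 5509 and 7336 in ZsGreen-dim cells. It was at 4948, 2635, 2259 and 5627 in Sca1+ ZsGreen-negative and 2521, 799, 1404 and 535 in Sca1- cells. The ZsGreen-high and ZsGreen-dim arrays overlapped, all 8 ZsGreen-positive arrays lay above all Sca1- arrays, and mouse 1 was the highest of the Sca1- arrays. Has2 was higher in ZsGreen-high than in Sca1- cells by 2.83 ± 0.38 (adjusted p = 7.52e-05) and in ZsGreen-dim than in Sca1- cells by 2.62 ± 0.38 (adjusted p = 0.000522). Among ZsGreen-negative cells it was higher with Sca1 by 1.69 ± 0.38 (adjusted p = 0.0282), in all 4 mice; the difference was 1.68 without mouse 2 and its adjusted p 0.208. Against Sca1+ ZsGreen-negative cells the ZsGreen-high excess was 1.14 ± 0.38 (adjusted p = 0.0345, and 0.179 without mouse 2), and the ZsGreen-dim excess 0.92 ± 0.38 did not pass (adjusted p = 0.183). The second probe set followed the first with r = 0.87 over the 16 arrays, and was at background on 2 of the 4 Sca1+ ZsGreen-negative and 3 of the 4 Sca1- arrays, so that no size of difference is given for it.

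Has3, the synthase of shorter chains, was at 232, 275, 284 and 284 in ZsGreen-high, 255, 262, 265 and 279 in ZsGreen-dim, 211, 271, 275 and 277 in Sca1+ ZsGreen-negative, and 283, 316, 259 and 258 in Sca1- cells. On 14 of the 16 arrays this was at background, so no level of Has3 can be given, and its 6 differences lay between -0.11 and 0.06.

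**Figure D1:**
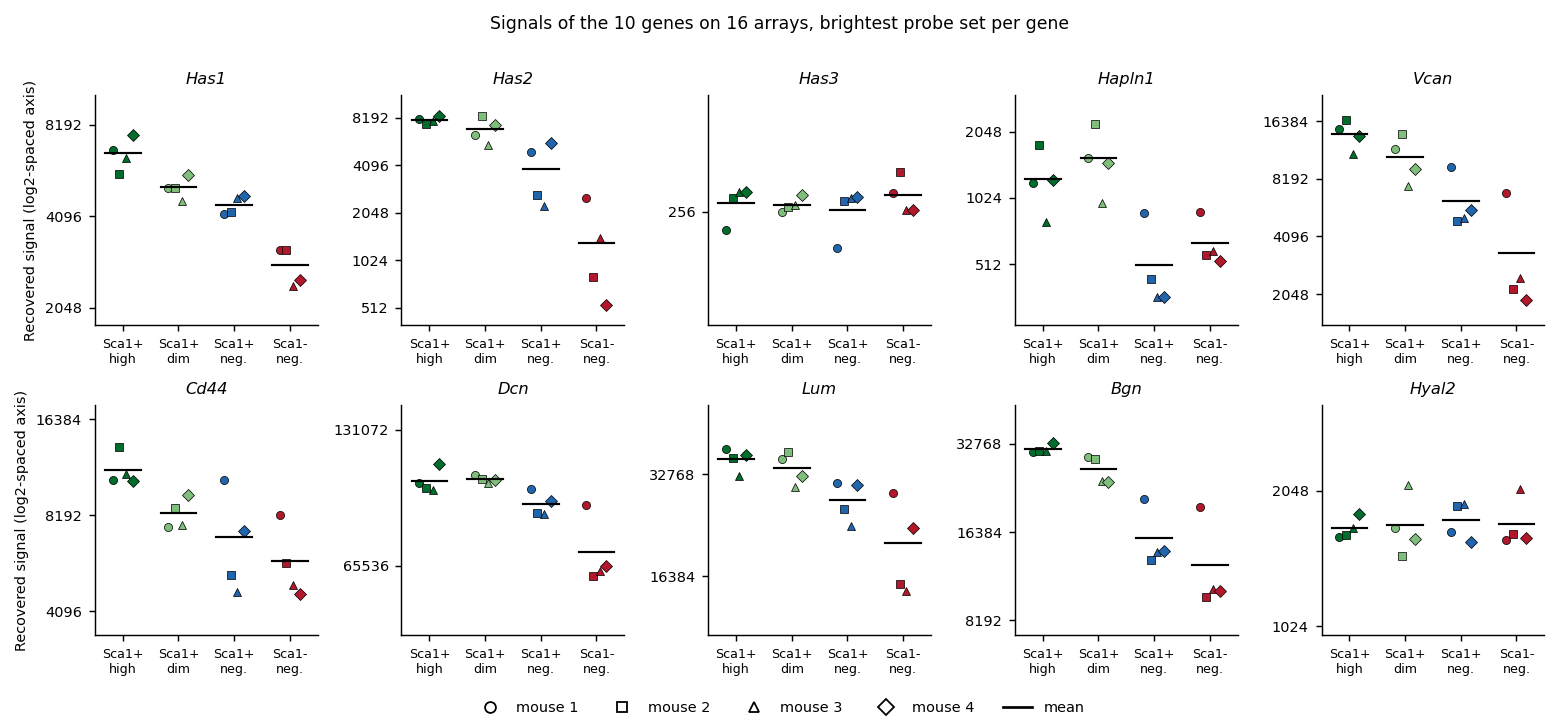
Recovered array signal (vertical, log2-spaced axis, its own range for each gene) of each of the 10 genes in the 4 sorted populations; each point is 1 array, its shape the mouse, and the line the mean of 4 mice. Has1, Has2, Vcan and Bgn step down from ZsGreen-high to Sca1- cells, the ZsGreen-dim arrays of Hapln1 lie above all negative arrays, and Has3 (14 of 16 arrays at background) and Hyal2 stay level.

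Hapln1 locks the versican head onto hyaluronan. Its probe set 1438020_PM_at was at 1193, 1780, 797 and 1232 in ZsGreen-high and 1561, 2234, 974 and 1476 in ZsGreen-dim cells, against 872, 436, 364 and 364 in Sca1+ ZsGreen-negative and 884, 561, 590 and 527 in Sca1- cells. All ZsGreen-dim arrays were above all negative arrays, the ZsGreen-high arrays overlapped with the mouse 1 negative arrays alone, and 2 of the 4 Sca1+ ZsGreen-negative arrays were at background. The sizes of the differences from Sca1+ ZsGreen-negative cells are therefore uncertain. Hapln1 was higher than in Sca1+ ZsGreen-negative cells by 1.34 ± 0.31 in ZsGreen-high (adjusted p = 0.00433) and by 1.66 ± 0.31 in ZsGreen-dim cells (adjusted p = 0.0257), and without mouse 2 by 1.11 (adjusted p = 0.0535) and 1.43 (adjusted p = 0.339). Against Sca1- cells it was higher by 0.94 ± 0.31 (adjusted p = 0.0273) and 1.26 ± 0.31 (adjusted p = 0.0146), and by 0.70 (adjusted p = 0.186) and 1.01 (adjusted p = 0.151) without mouse 2. It was the only one of the 10 genes lower in Sca1+ than in Sca1- ZsGreen-negative cells in all 4 mice, and lower in ZsGreen-high than in ZsGreen-dim cells in all 4, by 0.40 ± 0.31 (adjusted p = 0.745) and 0.32 ± 0.31 (adjusted p = 0.66), neither of which passed. In all 4 mice 11.3% and 13.3% of all genes were lower in these comparisons.

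Vcan, whose probe set 1427256_PM_at is the brightest of 5, was at 14964, 16621, 10996 and 13783 in ZsGreen-high and 11707, 13990, 7515 and 9208 in ZsGreen-dim cells. It was at 9404, 4907, 5110 and 5644 in Sca1+ ZsGreen-negative and 6877, 2178, 2496 and 1903 in Sca1- cells. The ZsGreen-high arrays were all above both negative populations, the ZsGreen-dim arrays were above all Sca1- arrays, and mouse 1 stood above the other mice in both negative populations. Vcan was higher in ZsGreen-high than in Sca1+ ZsGreen-negative cells by 1.21 ± 0.34 (adjusted p = 0.0135, and 0.119 without mouse 2) and than in Sca1- cells by 2.26 ± 0.34 (adjusted p = 0.00014, and 0.00725 without mouse 2). In ZsGreen-dim cells it was higher than in Sca1- cells by 1.83 ± 0.34 (adjusted p = 0.00261, and 0.0705 without mouse 2). Between the negative populations the difference was 1.06 ± 0.34 in favour of Sca1+ cells, with an adjusted p of 0.148, and of 0.0377 with the mouse as a block (0.0846 with the block and without mouse 2; 0.00463 without mouse 1).

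Hapln1 and Vcan are neighbours on chromosome 13 of GRCm38.p6, in the order Edil3, Hapln1, Vcan, Xrcc4. Edil3, an extracellular integrin ligand, differed much as Hapln1 did, by 1.26 ± 0.25 in ZsGreen-high (adjusted p = 0.00174) and 1.37 ± 0.25 in ZsGreen-dim cells (adjusted p = 0.0236, and 0.345 without mouse 2) against Sca1+ ZsGreen-negative cells. Xrcc4, a DNA repair gene, passed in none of the 6 comparisons. The promoter windows of both genes are shown because each holds the core of the motif that Gli factors bind, CCACCCA, as its reverse complement TGGGTGG (capitals), which overlaps no match of the longer GACCACCCA in either. The core stood in 8.11% of all windows on either strand and in 3 of the 6 matched here (the other is Hyal2), and GACCACCCA in 0.225% and 0 of 6. The windows are the 250 bases before the RefSeq start, 5′ to 3′ on the gene's strand, chr13:89540386-89540635 (plus) for Hapln1 and chr13:89742513-89742762 (minus) for Vcan; the capitals lie 172 to 166 and 191 to 185 bases before the start.
Hapln1: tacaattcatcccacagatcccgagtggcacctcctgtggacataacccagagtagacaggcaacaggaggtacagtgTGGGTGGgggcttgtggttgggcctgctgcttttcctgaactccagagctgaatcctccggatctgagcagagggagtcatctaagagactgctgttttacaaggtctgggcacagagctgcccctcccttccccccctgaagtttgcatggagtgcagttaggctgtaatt
Vcan: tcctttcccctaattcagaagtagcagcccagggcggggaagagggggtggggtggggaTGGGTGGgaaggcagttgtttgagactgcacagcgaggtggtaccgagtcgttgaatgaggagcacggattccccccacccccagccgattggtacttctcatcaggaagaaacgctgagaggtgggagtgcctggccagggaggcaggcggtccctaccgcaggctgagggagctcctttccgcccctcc

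Cd44, the main cell surface receptor for hyaluronan, was at 10577, 13410, 11030 and 10460 in ZsGreen-high and 7521, 8609, 7622 and 9454 in ZsGreen-dim cells (1434376_PM_at). It was at 10573, 5332, 4716 and 7312 in Sca1+ ZsGreen-negative and 8212, 5799, 4932 and 4642 in Sca1- cells. The ZsGreen-high arrays lay above all ZsGreen-dim and Sca1- arrays, and mouse 1 alone brought the Sca1+ ZsGreen-negative range up to them. Cd44 was higher in ZsGreen-high than in Sca1+ ZsGreen-negative cells by 0.77 ± 0.22 (adjusted p = 0.0149, and 0.181 without mouse 2) and than in Sca1- cells by 0.98 ± 0.22 (adjusted p = 0.00267). Without mouse 1 the ZsGreen-dim excess over Sca1- cells also passed (0.74, adjusted p = 0.00789), where it was 0.52 ± 0.22 with all mice (adjusted p = 0.128).

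Hyal2, which cuts hyaluronan at the cell surface into fragments, was at 1618, 1636, 1692 and 1817 in ZsGreen-high and 1696, 1467, 2115 and 1597 in ZsGreen-dim cells. It was at 1656, 1897, 1910 and 1579 in Sca1+ ZsGreen-negative and 1591, 1638, 2064 and 1607 in Sca1- cells. All populations overlapped, the 6 differences lay between -0.05 and 0.03 with an SE of 0.11, and no adjusted p was below 0.766.

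Bgn showed the narrowest spread in ZsGreen-high cells, at 30783, 31064, 30986 and 32864, then 29530, 28977, 24410 and 24331 in ZsGreen-dim cells. It was at 21203, 13115, 13983 and 14160 in Sca1+ ZsGreen-negative and 19887, 9836, 10440 and 10349 in Sca1- cells. The ZsGreen-high arrays were above all others, the ZsGreen-dim arrays above both negative populations, and the negative populations overlapped, each with mouse 1 apart. Bgn was higher in ZsGreen-high than in Sca1+ ZsGreen-negative cells by 1.04 ± 0.19 (adjusted p = 0.00121, and 0.0247 without mouse 2). The ZsGreen-dim excess of 0.80 ± 0.19 had an adjusted p of 0.0542, of 0.00517 with the mouse as a block (0.0502 with the block and without mouse 2), and of 0.000331 without mouse 1. Against Sca1- cells the excess was 1.38 ± 0.19 in ZsGreen-high (adjusted p = 9.54e-05) and 1.15 ± 0.19 in ZsGreen-dim cells (adjusted p = 0.00147).

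Dcn was close to the top of the arrays' scale, whose highest signals were 140741 to 155937, at 99939, 97489, 96464 and 109863 in ZsGreen-high and 103766, 101919, 99617 and 101599 in ZsGreen-dim cells. It was at 97095, 85582, 85248 and 90948 in Sca1+ ZsGreen-negative and 89414, 62124, 63792 and 65360 in Sca1- cells. The ZsGreen-positive arrays lay above all Sca1- arrays, and mouse 1 again stood apart in Sca1- cells. Dcn was higher than in Sca1- cells by 0.54 ± 0.10 in ZsGreen-high (adjusted p = 0.000574) and 0.55 ± 0.10 in ZsGreen-dim cells (adjusted p = 0.00197, and 0.0511 without mouse 2), directions that turned when the arrays were scaled to fibroblast markers (below 0 by 0.40 and 0.28). Between the negative populations its difference of 0.37 ± 0.10 had an adjusted p of 0.0641, and of 0.0335 with the mouse as a block (0.189 with the block and without mouse 2; 0.00406 without mouse 1). How far the top of the scale compressed the differences of Dcn was not tested.

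Lum, which lies next to Dcn on chromosome 10, was at 38732, 36461, 32258 and 37425 in ZsGreen-high and 36366, 38195, 29945 and 32383 in ZsGreen-dim cells. It was at 30777, 25872, 23120 and 30441 in Sca1+ ZsGreen-negative and 28918, 15597, 14820 and 22692 in Sca1- cells. Both ZsGreen-positive populations were above all Sca1- arrays, and the ZsGreen-high arrays also above all Sca1+ ZsGreen-negative arrays. Lum was higher than in Sca1- cells by 0.87 ± 0.18 in ZsGreen-high (adjusted p = 0.00123) and 0.79 ± 0.18 in ZsGreen-dim cells (adjusted p = 0.00815, and 0.146 without mouse 2), differences that became -0.063 and -0.041 with scaling to fibroblast markers. Against Sca1+ ZsGreen-negative cells the ZsGreen-high excess of 0.40 ± 0.18 had an adjusted p of 0.0995, and of 0.0278 with the mouse as a block (0.0589 with the block and without mouse 2). Kera (keratocan), the next gene along, passed in no comparison.

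Counted by comparison, 6 of the 10 genes rose in ZsGreen-high against Sca1+ ZsGreen-negative cells and 0 fell, where 17.0% of all genes rose and 13.9% fell: Has1, Has2, Hapln1, Vcan, Cd44 and Bgn. The median of the 10 was 0.66, against 0.00 over all genes, and 2 of them, Has1 and Bgn, passed without mouse 2. In ZsGreen-dim against Sca1+ ZsGreen-negative cells Hapln1 alone rose (0.901% of all genes rose and 0.608% fell; median of the 10 genes 0.32); with the mouse as a block Hapln1 and Bgn passed, where 6.18% of genes rose. Hapln1 alone of them did so with the block and without mouse 2. Without the block, leaving out mouse 2 left none of the 10 and 10 of all 17097 genes, and leaving out mouse 1 gave 4 (Hapln1, Vcan, Cd44 and Bgn). Both comparisons share the Sca1+ ZsGreen-negative arrays. Counts with a mouse left out, with the block or under another scaling often stand without the share of all genes under that setting. This holds in this paragraph and below. Such counts describe the genes counted and are no result about them as a list.

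ZsGreen-high against ZsGreen-dim cells gave 0 passing genes of the 10 in limma, where 0.485% of all genes rose and 0.93% fell; 1 of the 10 (Has1) had an unadjusted p under 0.05, and the fit with the mouse as a block also passed 0, where 2.82% of all genes rose and 4.67% fell. The 4 genes Has1, Vcan, Cd44 and Bgn were higher in ZsGreen-high cells in all 4 mice, as were 18.3% of all genes.

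Between the ZsGreen-negative populations 2 genes, Has1 and Has2, rose in Sca1+ cells, where 1.22% of all genes rose and 1.23% fell; 4 passed with the mouse as a block (2.06% rose), adding Dcn and Vcan. Without mouse 2 Has1 alone passed, with and without the block, and without mouse 1 5 passed. Against Sca1- cells 8 genes rose in ZsGreen-high cells, where 19.2% of all genes rose and 16.7% fell, and all but Has3 and Hyal2 were among them; 7 rose in ZsGreen-dim cells (7.96% and 5.89%), Cd44 being the one that did not. Without mouse 2 these counts were 7 and 3. The 3 comparisons against Sca1- cells share those 4 arrays, and the ZsGreen-high and ZsGreen-dim medians of the 10 genes were 0.96 and 0.82.

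**Figure D2:**
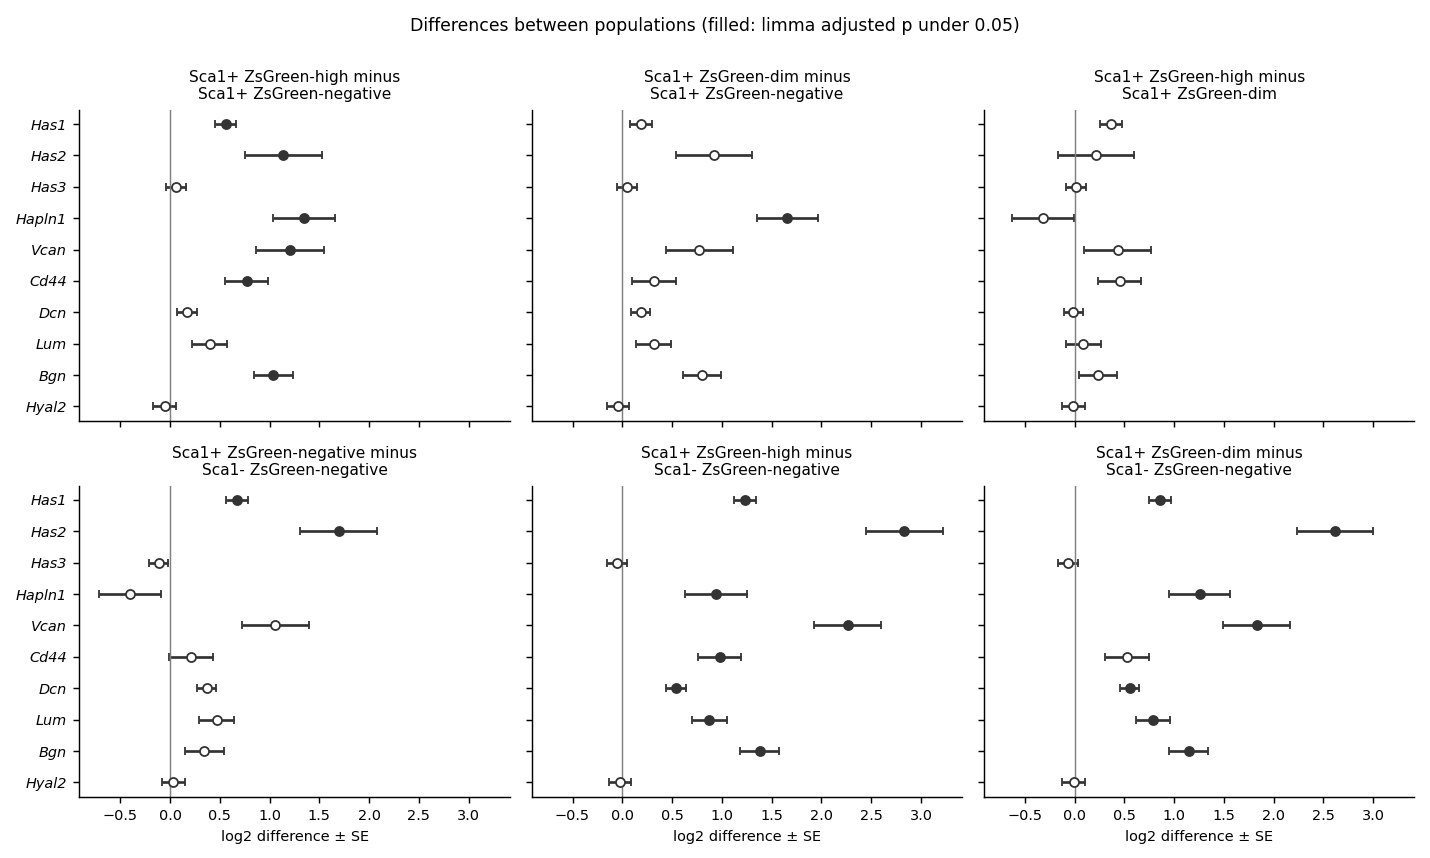
Log2 difference (horizontal, with its SE) of the 10 genes (vertical) in each of the 6 comparisons of 4 against 4 arrays, filled where limma's adjusted p is under 0.05. The filled points are 6, 1 and 0 in the upper row and 2, 8 and 7 in the lower row, all to the right of 0.

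Fibroblast markers differed in the same direction as these genes. Over 7 fibroblast markers (the 8 without Pdpn, which was used in the sort) the median difference was 0.61 in ZsGreen-high against Sca1+ ZsGreen-negative cells; Thy1 differed by 1.17, Col1a2 by 0.92 and Pdgfra by 0.81, but Col1a1 by 0.10 and Col3a1 by -0.14. The mean log2 signal of the full fibroblast list of 8, with Pdpn, was 13.65 ± 0.13, 13.54 ± 0.15, 13.03 ± 0.25 and 12.60 ± 0.47 from ZsGreen-high to Sca1- cells, and that of the epithelial list 11.68 ± 0.88, 13.30 ± 0.51, 14.01 ± 0.29 and 13.98 ± 0.46. Their part in the differences of the 10 genes was not tested. When each array was scaled to the mean of the 7 markers, a setting chosen after the data were seen that moved the median of all genes by -0.57 in ZsGreen-high against Sca1+ ZsGreen-negative and by -0.94 against Sca1- cells, Hapln1 (0.78), Vcan (0.64) and Bgn (0.47) still rose in the first comparison. Has2 stayed higher than in Sca1- cells in ZsGreen-high (1.90), ZsGreen-dim (1.79) and Sca1+ ZsGreen-negative cells (1.32), and Vcan in the first and second (1.33 and 1.00). Has1 came to -0.0075 against Sca1+ ZsGreen-negative cells, Dcn fell by 0.40 (adjusted p = 0.0477) and Hyal2 fell by 0.62.

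**Figure D3:**
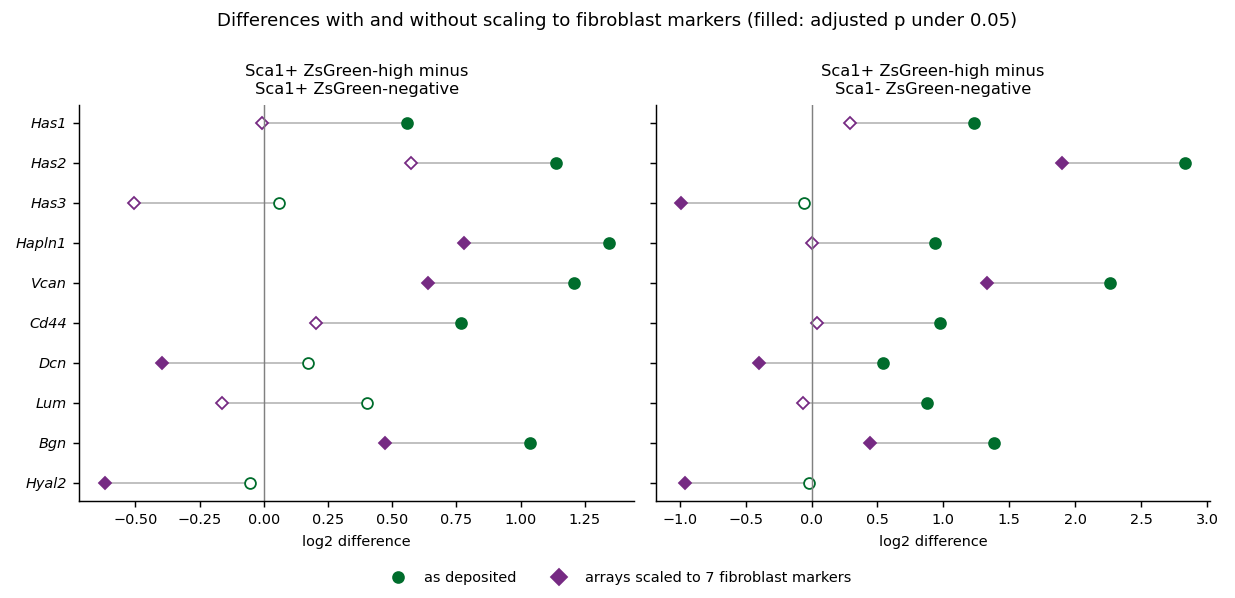
Log2 difference (horizontal) of the 10 genes (vertical) in ZsGreen-high against Sca1+ ZsGreen-negative (left) and Sca1- ZsGreen-negative cells (right). Circles (labelled as deposited) are on the scale of the recovered signals, and diamonds have arrays scaled to 7 fibroblast markers. Filled points have an adjusted p under 0.05. Scaling shifts every gene to the left, Hapln1, Vcan and Bgn stay filled and above 0 on the left, and Has2, Vcan and Bgn do so on the right.

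Where a gene had more than 1 probe set, the sets mostly ran together. The 3 brightest of Vcan rose by 1.21, 1.02 and 0.73 in ZsGreen-high against Sca1+ ZsGreen-negative cells and followed the brightest with r = 0.98 and 0.96 over the 16 arrays, which share their normalization. Between the negative populations the second of these, 1421694_PM_a_at, passed at 1.02 ± 0.23 (adjusted p over all probe sets 0.0251). The brightest (adjusted p 0.146) and 1427257_PM_at (0.66 ± 0.24, adjusted p 0.219) did not. Values of sets other than the brightest are given for all mice only. The other Vcan sets were at background on 8 and 11 arrays. Of the 4 Cd44 sets, 1434376_PM_at and 1423760_PM_at both gave 0.77 and correlated at 0.99, while 1452483_PM_a_at (0.42 ± 0.19, adjusted p over all probe sets 0.111) and 1443265_PM_at (0.09 ± 0.30, adjusted p 0.866, r = 0.50) did not pass. The Bgn sets gave 1.04 and 0.92 and the Hapln1 sets 1.34 and 0.81, and all of these passed. Which transcript isoform or exon each set reads was not tested.

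**Figure D4:**
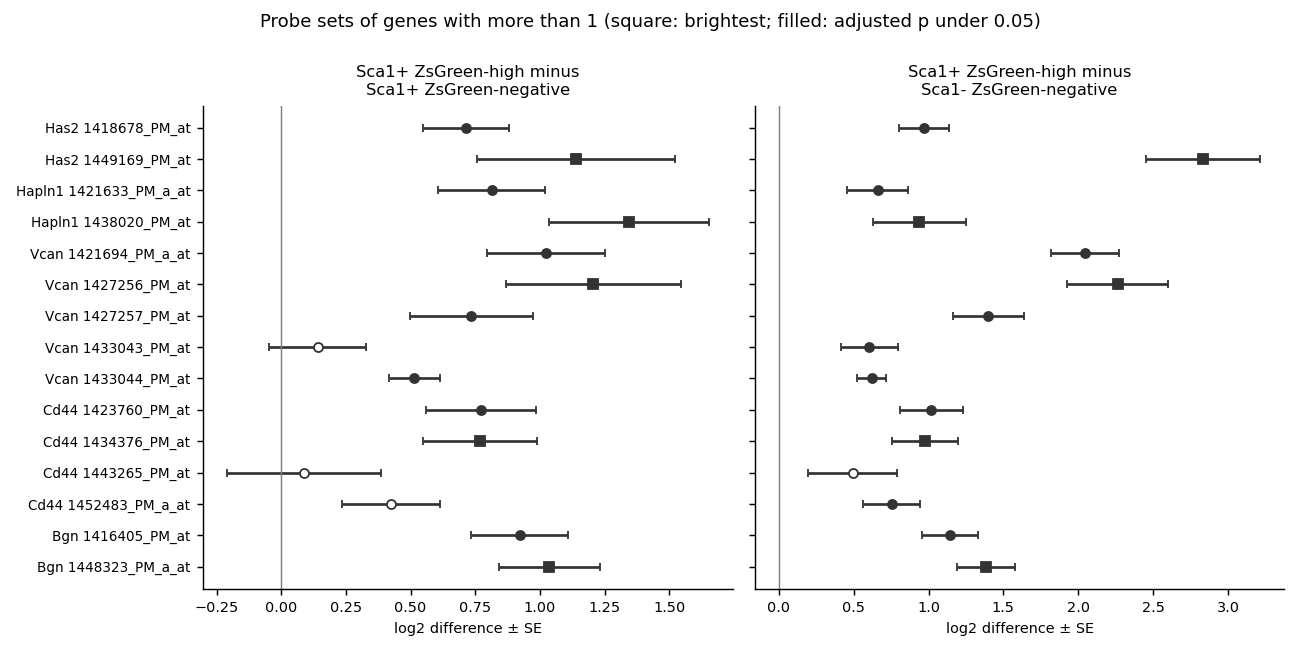
Log2 difference (horizontal, with its SE) of each probe set (vertical) of Has2, Hapln1, Vcan, Cd44 and Bgn in ZsGreen-high against Sca1+ ZsGreen-negative (left) and Sca1- ZsGreen-negative cells (right); squares mark the brightest set of a gene, filled points an adjusted p under 0.05 over all probe sets. Vcan 1433043_PM_at and Cd44 1443265_PM_at and 1452483_PM_a_at are open on the left, and Cd44 1443265_PM_at on the right.

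The enzymes that supply the UDP-sugars did not move as a group. For this list and those below, the shares of all genes that rose or fell are those given above for each comparison. Gfpt2, one of a pair of isoenzymes for the rate-limiting step toward UDP-N-acetylglucosamine, was at 13362 ± 2009, 10911 ± 638 and 10053 ± 1659 in the 3 Sca1+ populations from ZsGreen-high to ZsGreen-negative and 2487 ± 1052 in Sca1- cells (SD, n = 4). It rose by 2.10 ± 0.22 in Sca1+ against Sca1- ZsGreen-negative cells (adjusted p = 7.66e-05), by 2.07 without mouse 2 (adjusted p = 0.00839), and by 1.73 with scaling to fibroblast markers. Its partner Gfpt1 had 6810 ± 1600 in ZsGreen-high, 11283 ± 2612 in ZsGreen-dim, 16964 ± 3054 in Sca1+ ZsGreen-negative and 17364 ± 4671 in Sca1- cells, a fall of 1.33 ± 0.22 in ZsGreen-high against Sca1+ ZsGreen-negative cells (adjusted p = 0.00066). Gnpnat1 and Uap1, later enzymes of that branch, fell by 1.01 ± 0.12 and 0.43 ± 0.15 there, so that 0 of the 9 supply genes rose and 3 fell (Uap1 had an adjusted p of 0.213 without mouse 2). Pgm3, which acts between Gnpnat1 and Uap1, did not pass there. Epithelial markers fell in the same comparison, and their part was not tested. Ugdh, which makes UDP-glucuronic acid, rose in ZsGreen-high against Sca1- cells by 0.31 ± 0.11 (adjusted p = 0.0343), a call lost without mouse 1 (adjusted p = 0.234) and without mouse 2.

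Of the 16 measured genes that bind or crosslink hyaluronan, Tnfaip6 and Ptx3 rose in Sca1+ against Sca1- ZsGreen-negative cells and none fell. Tnfaip6 encodes TSG-6, which moves heavy chains onto hyaluronan; it was at 9218 ± 203, 8194 ± 1822, 9063 ± 2580 and 2152 ± 1428 from ZsGreen-high to Sca1- cells and rose by 2.30 ± 0.37 (adjusted p = 0.00264, and 0.0634 without mouse 2). Ptx3, a pentraxin that crosslinks those complexes, was at 6223 ± 2877 in Sca1+ ZsGreen-negative cells and at 1221 ± 465, 901 ± 163 and 376 ± 105 in ZsGreen-high, ZsGreen-dim and Sca1- cells, with 2 of the 4 Sca1- arrays at background. The Sca1+ ZsGreen-negative arrays were thus above all others: Ptx3 rose by 3.97 ± 0.31 against Sca1- cells (adjusted p = 4.93e-06) and was lower by 2.31 ± 0.31 in ZsGreen-high cells (adjusted p = 0.000222). Background on the Sca1- arrays leaves the first of these sizes uncertain. Lyve1, the receptor of lymphatic endothelium and some macrophages, was lower in ZsGreen-high than in Sca1- cells (1341 ± 189 and 6020 ± 5204), by 1.85 ± 0.41 in log2. Of 10 endothelial markers, a list that holds Lyve1, 8 were lower there (5 without mouse 2) and 1 was higher, and their part was not tested.

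Versican is cut by proteases of the Adamts family. Adamts5, Adamts4 and Adamts1 rose in Sca1+ against Sca1- ZsGreen-negative cells by 1.88 ± 0.30, 1.30 ± 0.30 and 0.96 ± 0.24 (adjusted p = 0.00229, 0.0318 and 0.0494), 3 of 7 genes with 0 falling; Adamts5 alone passed without mouse 2 (adjusted p = 0.0455). Against Sca1- cells the 3 also rose in ZsGreen-high and ZsGreen-dim cells. Without mouse 2 all 3 did so in ZsGreen-high and Adamts5 alone in ZsGreen-dim cells. In ZsGreen-high against Sca1+ ZsGreen-negative cells 0 rose and Adamts15 fell by 0.57 ± 0.20 (adjusted p = 0.0369, 0.0505 with the mouse as a block and 0.328 without mouse 2).

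Versican, decorin and biglycan carry chondroitin or dermatan sulfate chains. Of 19 measured genes of linker and chain synthesis, 13 rose and 0 fell in ZsGreen-high against Sca1+ ZsGreen-negative cells, with a median of 0.86. Of all genes 17.0% rose and 13.9% fell there. With the mouse as a block 13 of the 19 rose and 1 fell, and without mouse 2 10 rose and 0 fell. Between the ZsGreen-negative populations 0 passed in limma, with and without the block, and the median was 0.20. Of all genes 1.22% rose and 1.23% fell in that comparison without the block. Chst11, a chondroitin 4-O-sulfotransferase, stepped from 5771 ± 446 in ZsGreen-high to 3816 ± 102 in ZsGreen-dim, 2451 ± 409 in Sca1+ ZsGreen-negative and 2504 ± 425 in Sca1- cells. It rose by 1.25 ± 0.13 (adjusted p = 8.93e-05) in ZsGreen-high and 0.65 ± 0.13 (adjusted p = 0.0284, and 0.289 without mouse 2) in ZsGreen-dim against Sca1+ ZsGreen-negative cells, and by 0.59 ± 0.13 between ZsGreen-high and ZsGreen-dim cells (adjusted p = 0.0333, and 0.253 without mouse 2). Dse, the epimerase that turns chondroitin into dermatan sulfate, and Chsy1, a chain polymerase, rose by 1.48 ± 0.41 and 1.16 ± 0.25 in ZsGreen-high against Sca1+ ZsGreen-negative cells. Without mouse 2 the adjusted p of Dse was 0.0796. With scaling to fibroblast markers the count of 19 in ZsGreen-high against Sca1+ ZsGreen-negative cells became 8 higher and 5 lower. That scaling moved the median of all genes there by -0.57. Shares of all genes are not given for this count, nor for those with the block or without mouse 2. These counts are no result about the list.

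**Figure D5:**
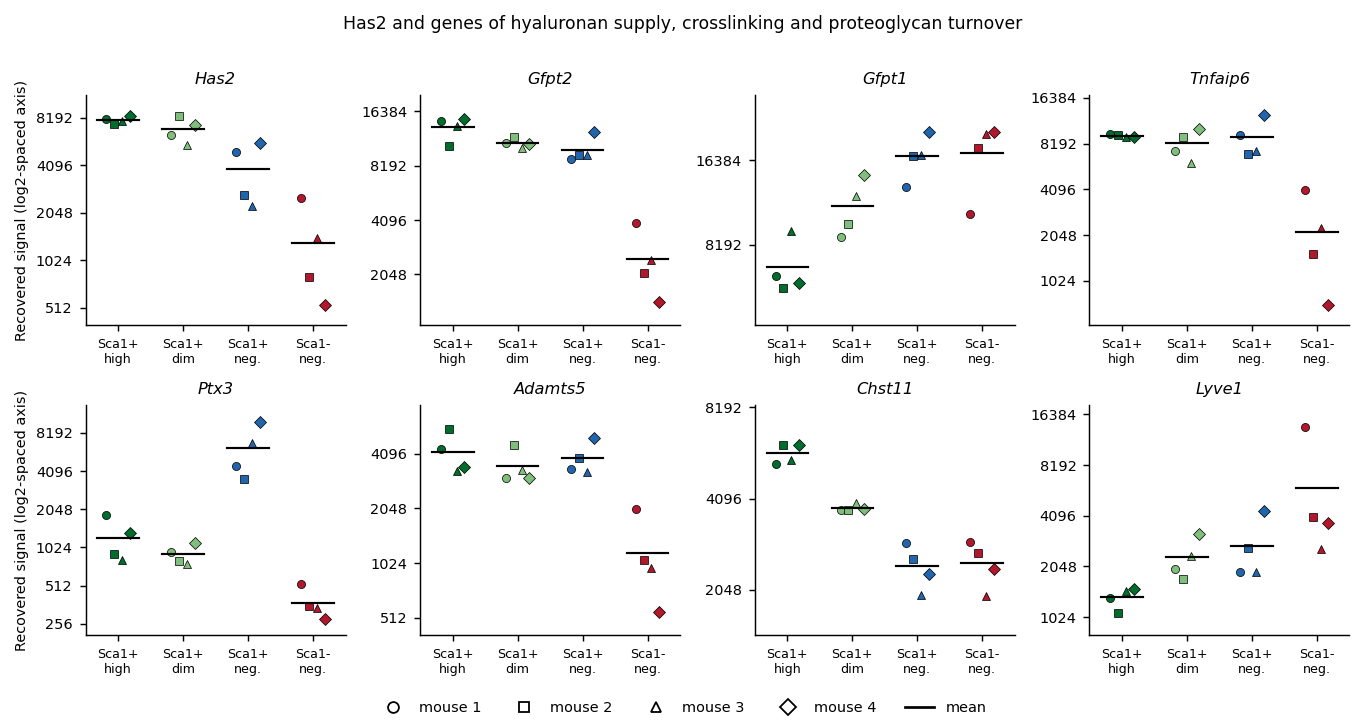
Recovered array signal (vertical, log2-spaced axis, its own range for each gene) of Has2 and 7 genes of hyaluronan supply (Gfpt2, Gfpt1), crosslinking and uptake (Tnfaip6, Ptx3, Lyve1), versican cleavage (Adamts5) and chain sulfation (Chst11) in the 4 populations; each point is 1 array, its shape the mouse, and the line the mean of 4 mice. Gfpt2, Tnfaip6 and Adamts5 are lowest in Sca1- cells, Ptx3 is highest in Sca1+ ZsGreen-negative cells, and Chst11 is highest in ZsGreen-high cells.

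Among 12 further small leucine-rich proteoglycans Aspn (asporin), Prelp and Podn rose in ZsGreen-high against Sca1+ ZsGreen-negative cells, by 1.64 ± 0.47, 1.11 ± 0.23 and 0.82 ± 0.13 (Aspn had an adjusted p of 0.168 without mouse 2). With the mouse as a block 5 rose, a count given without the share of all genes under that fit. Epyc fell (adjusted p = 0.0154, and 0.127 without mouse 2). It was at background on all 4 ZsGreen-high arrays and on 2 of the 4 Sca1+ ZsGreen-negative ones, so that no size of difference is given for it. Ogn (osteoglycin) rose against Sca1- cells by 1.56 ± 0.29 in ZsGreen-high and 1.37 ± 0.29 in ZsGreen-dim cells (adjusted p = 0.00631, and 0.108 without mouse 2). Of 12 heparan sulfate proteoglycans 7 rose and 1 fell in ZsGreen-high against Sca1+ ZsGreen-negative cells, with the syndecans Sdc3 and Sdc2 and the glypican Gpc1 at 1.27 ± 0.21, 1.23 ± 0.23 and 1.24 ± 0.24, and Sdc4 at -0.41 ± 0.09. Sdc3 and Sdc2 also rose in ZsGreen-dim cells, by 1.09 ± 0.21 (adjusted p = 0.0279, and 0.345 without mouse 2) and 1.07 ± 0.23 (adjusted p = 0.0427, and 0.391 without mouse 2). The aggregating relatives of versican, Acan, Bcan and Ncan, passed in no comparison, except that with the mouse as a block Ncan was lower in ZsGreen-high than in Sca1+ ZsGreen-negative cells (a log2 difference of -0.23, adjusted p = 0.0327). Of 7 other chondroitin sulfate proteoglycans Srgn (serglycin), a proteoglycan of blood cell granules, fell by 1.72 ± 0.31 in ZsGreen-high against Sca1+ ZsGreen-negative cells, where 4 of 11 leukocyte markers also fell (2 without mouse 2), a part that was not tested. Among 7 hyaluronan breakdown genes Hyal1 and Gusb rose and Cemip2 fell there, by 0.59 ± 0.16, 0.23 ± 0.07 and 0.59 ± 0.13. Without mouse 2 Hyal1 and Gusb had adjusted p-values of 0.0554 and 0.0593 (Gusb 0.152 without mouse 1).

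As a description over the 16 arrays, which share mice, populations and normalization, Vcan ran with Bgn (r = 0.96), Dcn (0.94) and Has2 (0.94), and Dcn with Lum (0.93). Hapln1 was further from them, at 0.75 with Vcan and 0.49 with Has1, and Hyal2 lay between -0.15 and -0.40 with the other genes except Has3 (0.02). Among 8548 genes of above-median signal the nearest profiles were 9130221H12Rik, Fgf7 and Spaca6 for Has1 (0.96, 0.95 and 0.95), Cadm3, Cd34 and Csf1 for Has2 (0.97 each), Timp3 and Edil3 for Hapln1 (0.96 and 0.92), Dpysl3, Ppic and Htra1 for Vcan (0.99 each), Ahr for Cd44 (0.97), Gabra3 for Dcn (0.98), Ms4a4d for Lum (0.97) and Prickle1 for Bgn (0.99). For Has3 and Hyal2 the nearest were Tmem33 (0.82) and Ppp1r16a (0.86).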

How the data were processed

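RNA of 16 sorted populations (4 per group, numbered mouse 1 to 4 in each) was amplified from 2 ng with a 3′ IVT kit and hybridised to Affymetrix arrays; Affymetrix Expression Console 1.1 is named in the submitters' processing notes, and how arrays were normalized is not given in the sources used here. Values deposited by the authors are a score per probe set, standardized over the 16 arrays. Since each score was the standardized log2 of whole numbers, the signals behind all 45141 probe sets were recovered (58 to 155937; recomputed scores differed by less than 1e-09; tested on simulated data). Of the probe sets, 28898 had 1 gene symbol in the platform annotation, 551 several, 15588 none, and 104 were controls. A gene took its probe set of highest mean, giving 17097 genes; log2 signals were fitted with limma 3.58.1 (R 4.3.3), 1 mean per population, Benjamini-Hochberg over all genes, threshold 0.05. Python 3.11.15 was used elsewhere.

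Arrays pair by the mouse the titles number, which the mouse 2 arrays go against: deviations from population means correlated at 0.26 on average within a mouse (0.52, -0.08, 0.51 and 0.11 for mice 1 to 4) and at -0.09 between mice. Number of arrays limits the precision. The 10 genes, the pathway and marker lists were chosen with earlier results of these data known. Named are all 10 genes, up to 3 genes of largest change per list and comparison with a few that the text turns on (Ugdh, Lyve1, Podn, Sdc4), and the genes of most alike profile. Promoter windows of 6 of the 10 genes were matched by symbol in RefSeq, GRCm38.p6. Alternatives were the mouse block, each mouse or array left out, only the 2 populations compared, other probe set rules, quantile and control scaling, the deposited scores, an intensity trend, and 2 added after seeing the data (fibroblast-marker scaling, and the block without mouse 2).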

Additional observations from a re-analysis of the deposited data

Results flagged for a closer look

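In each population the highest and lowest array of each of the 10 genes was set against the other 3; 7 of 40 sets had an array far from the rest (gap over range above Dixon's critical value), where chance gives about 1 in 20. Mouse 1 accounts for 5: Bgn at 21203 in Sca1+ ZsGreen-negative and 19887 in Sca1- cells, Dcn at 89414 in Sca1- cells, and Has3 at 232 in ZsGreen-high and 211 in Sca1+ ZsGreen-negative cells, both at background. Bgn in the ZsGreen-high cells of mouse 4 (32864) and Hyal2 in the Sca1- cells of mouse 3 (2064) were the others.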

How the results depend on the processing

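The counts of the 10 genes that passed were 6, 1 and 0 in the upper row of comparisons (ZsGreen-high and ZsGreen-dim against Sca1+ ZsGreen-negative, ZsGreen-high against ZsGreen-dim), 2, 8 and 7 in the others (Sca1+ against Sca1- ZsGreen-negative, ZsGreen-high and ZsGreen-dim against Sca1-), and 8 in the F test. With the mouse as a block, a paired fit (replicate block), they were 7, 2, 0, 4, 8, 7 and 8, and the block changed no other call of the 10 genes than those printed beside their results. With the block and without mouse 2 they were 4, 1, 0, 1, 8, 7 and 7. Leaving out 1 mouse or 1 array at a time they ranged over 2 to 8, 0 to 4, 0 to 0, 0 to 6, 7 to 8, 3 to 8 and 6 to 8. ZsGreen-dim against Sca1+ ZsGreen-negative gave 2 with only those populations fitted, with genes above the controls, with hybridization-control scaling and with an intensity trend, and 0 with the deposited scores. Sca1+ against Sca1- ZsGreen-negative gave 1 with only those populations fitted, with the mean over probe sets and with fibroblast scaling, and 0 with the deposited scores, which gave 3 for ZsGreen-high against Sca1+ ZsGreen-negative.

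Scaling to hybridization controls moved the median of all genes by up to 0.43. It made 92.1% of calls in ZsGreen-high against Sca1+ ZsGreen-negative cells higher (55% before). It turned Has3 to 0.38 and Hyal2 to 0.41 in ZsGreen-high against Sca1- cells. For ZsGreen-high against ZsGreen-dim cells it passed 5 of the genes followed here. In that comparison it passed 7163 of all 17097 genes, 96.5% of them higher, and moved the median of all genes by 0.32. The count of 5 is therefore no result about the list. Scaling to fibroblast markers gave 4 for ZsGreen-dim against Sca1- cells (2 higher, 2 lower). This scaling passed 15743 of all 17097 genes there, 1.43% of them higher. It turned Has1 to -0.0075 and Dcn to -0.40 in ZsGreen-high against Sca1+ ZsGreen-negative cells, Dcn to -0.40 and Lum to -0.063 in ZsGreen-high against Sca1- cells, and Dcn to -0.28 and Lum to -0.041 in ZsGreen-dim against Sca1- cells. These shifts follow from the scaling itself. Of 1854 single-gene values under the alternatives, 1669 kept direction and side of the threshold. Has3 was at background on 14 of 16 arrays, which limits what can be said of it. Dcn lay close to the top of the scale, and how far this limited its differences was not tested.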
